A study of Mus musculus with 18 samples.

Results

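The 10 genes described here are read in developmental biology as the core of the epithelial to mesenchymal transition and of the cadherin switch that goes with it. They were chosen by name, as the rows of the count table whose symbol is Cdh1, Cdh2, Epcam, Vim, Snai1, Snai2, Zeb1, Zeb2, Twist1 or Fn1, and they make up 10 of the 21995 genes in the table. Earlier results of these data were known when they were chosen, so comparisons of the 10 with all genes are descriptive. All 10 passed the filter on low counts, as did 18352 genes in all. RNA-seq was run on mouse embryonic stem cells (ESCs), pluripotent cells taken from the early embryo, of 2 genotypes, Oct1 cKO and Parental, with the Parental cells also marked WT. Oct1 is the protein of Pou2f1, a POU-domain transcription factor that binds the octamer DNA motif. Each genotype was profiled undifferentiated at day 0 and after 2 and 6 days of differentiation with retinoic acid, the vitamin A derivative that activates nuclear receptors, at 1.5 ug/ml on 0.01% gelatin. The 6 groups were Oct1 cKO cells at days 0, 2 and 6 and parental cells at days 0, 2 and 6, with 3 libraries each. The labels do not say how or when the gene was deleted, which exons were removed, whether the cells are 1 clone or several, or whether replicate libraries stem from separate cultures. A p-value here therefore speaks only to library-to-library spread, part or all of which may be technical.

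Cells of an epithelium hold to each other through adherens junctions, in which Cdh1 (E-cadherin) of one cell binds Cdh1 of the next and beta-catenin and alpha-catenin tie it to actin. In a transition to mesenchyme, zinc-finger factors of the Snai and Zeb families and the basic helix-loop-helix factor Twist1 repress or oppose Cdh1, Cdh2 (N-cadherin) takes its place, and cells make vimentin filaments and fibronectin matrix. In the mouse embryo this happens when epiblast cells pass through the primitive streak to form mesoderm, for which Snai1 is needed, and again when neural crest cells leave the neural tube. The neural plate also exchanges Cdh1 for Cdh2 while it stays an epithelium. ESCs themselves carry Cdh1 and Epcam at the surface of their compact colonies.

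Total counts per library were between 13694126 and 19296966. Pou2f1, the gene named by the genotype label, had a lower level in Oct1 cKO cells at every day but was not absent. Levels are in CPM, read counts scaled to the size of the library. It averaged 79.3 ± 14.6 CPM in Oct1 cKO cells and 129 ± 5.85 CPM in parental cells at day 0, 59.7 ± 0.985 CPM in Oct1 cKO cells and 103 ± 4.35 CPM in parental cells at day 2 and 41.95 ± 5.15 CPM in Oct1 cKO cells and 63.4 ± 2.04 CPM in parental cells at day 6 (SD, n = 3 each). The log2 fold changes were -0.70 ± 0.10, adjusted p = 1.36e-05 at day 0, -0.78 ± 0.10, adjusted p = 2.81e-06 at day 2 and -0.60 ± 0.11, adjusted p = 8.6e-05 at day 6, so the label is borne out in direction while reads remain over the gene as a whole. All 6 pluripotency markers (Pou5f1, Nanog, Zfp42, Dppa5a, Tdgf1 and Utf1) were present at day 0, with a summed level of 6352 to 7272 CPM in Oct1 cKO libraries and 5313 to 5464 CPM in parental libraries. Replicate 3 of the Oct1 cKO cells at day 0 stood apart from its 2 partners, with a chi-square per degree of freedom of 10.787 and 10.434 against them, where those 2 gave 1.216 between themselves.

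All log2 fold changes below are given with a standard error and come from 1 fit of edgeR's quasi-likelihood test over all 18 libraries, with Benjamini-Hochberg adjusted p-values over all 18352 genes of a comparison. A gene under an adjusted p of 0.05 is called. Between Oct1 cKO and parental cells, 8 of the 10 genes were called at day 0 where 53.5% of all genes were, with 4 higher (26.4% of all genes) and 4 lower (27%). At day 2 it was 7 of 10 against 67.3% of all genes, with 4 higher (33.7%) and 3 lower (33.6%). At day 6 it was 10 of 10 against 74.5%, with 4 higher (36.7%) and 6 lower (37.8%). Under scaling by library size alone the day 2 split was 3 higher and 4 lower, and 34.2% of all called genes were higher at that day where 50.06% were with TMM factors. At day 6 that share was 38.4% where it was 49.3% with TMM factors, and the split of the 10 genes was 4 and 6 under both. The 3 libraries of one genotype did not overlap the 3 of the other for 10 of the 10 genes at day 0 (57.6% of all genes), 7 at day 2 (71%) and 10 at day 6 (76.8%). A call was thus the usual outcome for any gene in these data, and the counts alone say little about the 10. The median size of the difference, without its sign, was 0.44, 0.52 and 2.89 on the log2 scale for the 10 genes at days 0, 2 and 6, and 0.37, 0.48 and 0.72 for all genes tested. At day 6 the epithelial genes Cdh1 and Epcam were higher in Oct1 cKO cells and Cdh2, Vim, Snai2, Zeb1, Zeb2 and Twist1 were lower, while Snai1 and Fn1, which belong to the mesenchymal side, were higher.

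**Figure D1:**
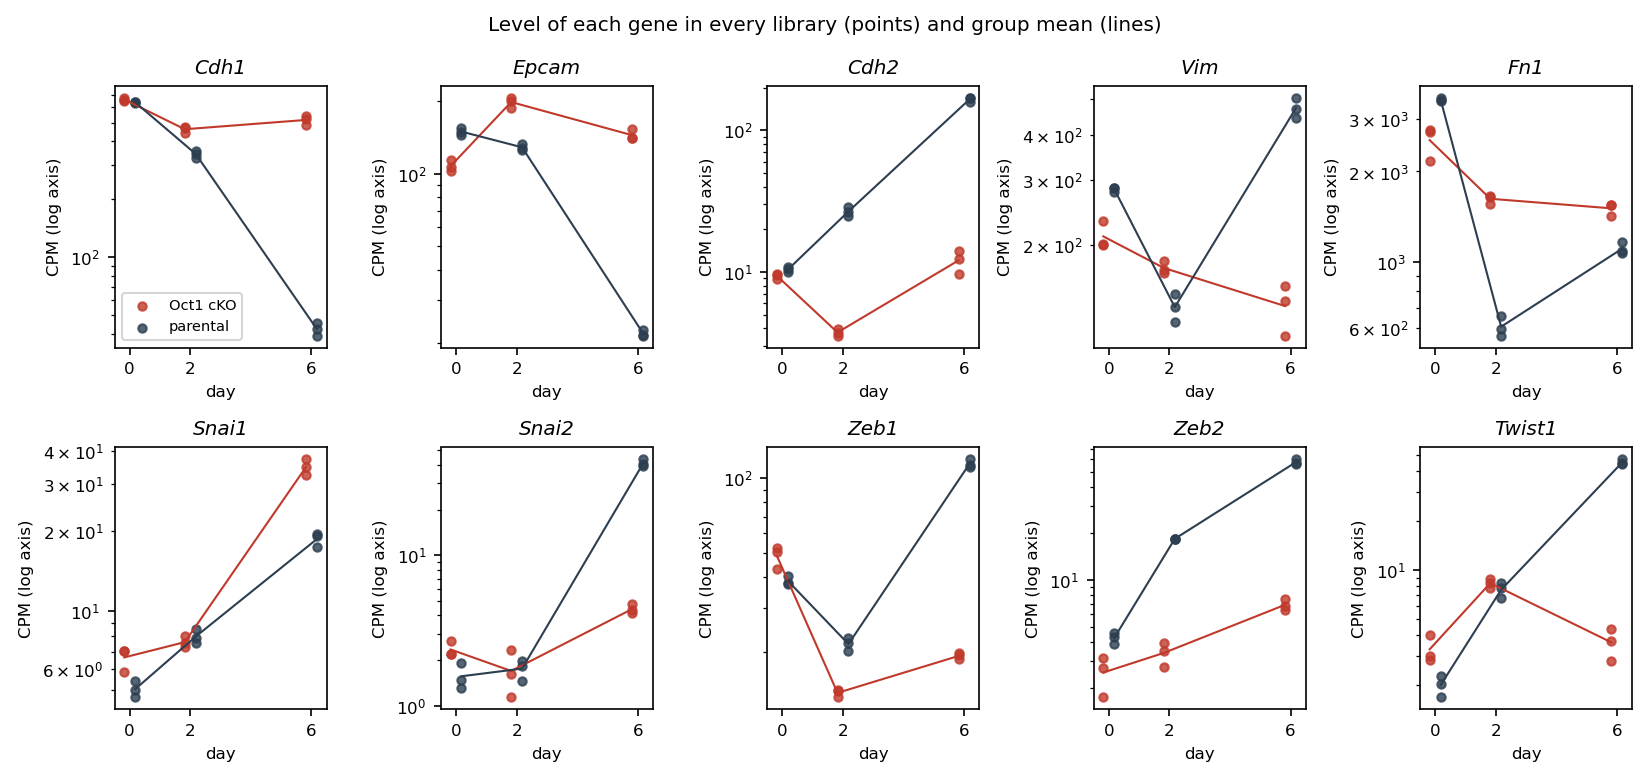
CPM of each of the 10 genes (log axis) against day of retinoic acid, with 1 point per library, Oct1 cKO in red to the left of parental in dark blue, and lines through group means. At day 6 the 3 Oct1 cKO libraries do not overlap the 3 parental libraries for any of the 10 genes, with Cdh1 between 486 and 541 CPM in Oct1 cKO cells and between 39.2 and 45.5 CPM in parental cells.

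Cdh1 encodes E-cadherin, the adhesion molecule of epithelia and of ESC colonies (ENSMUSG00000000303, chromosome 8, 106603351 to 106670246, plus strand of GRCm38, GENCODE M21). Its level dropped modestly in Oct1 cKO cells and far more in parental cells by day 6. Oct1 cKO libraries had 659.7, 673 and 649 at day 0, 475, 444 and 469 at day 2 and 524, 486 and 541 at day 6 (all CPM). Parental libraries had 637, 634 and 644 at day 0, 357, 346 and 329.6 at day 2 and 39.2, 45.5 and 42.5 at day 6. The genotypes were close at day 0, where the Oct1 cKO libraries lay just above the parental ones, and stood further apart on each later day. At day 0 the difference was not called (0.05 ± 0.05, adjusted p = 0.41). By day 2 Cdh1 was higher in Oct1 cKO cells (0.43 ± 0.05, adjusted p = 6.87e-10), as it was by day 6 (3.61 ± 0.06, adjusted p = 5.26e-36). Scaled by library size alone, the day 2 difference was 0.23. Over the 6 days Cdh1 fell by 0.35 ± 0.05 on the log2 scale in Oct1 cKO cells (adjusted p = 1.85e-08) and by 3.91 ± 0.06 in parental cells (adjusted p = 2.72e-38). Between days 2 and 6 it rose slightly in Oct1 cKO cells (0.16 ± 0.05, adjusted p = 0.00265), a change that was -0.0305 and not called under scaling by library size. On the log2 scale, most of the parental drop came over the same interval (-3.02 ± 0.06, adjusted p = 1.23e-34). In CPM the parental mean went from 638 at day 0 to 344 at day 2 and 42.4 at day 6, by similar amounts. In bulk RNA, fewer cells that express Cdh1 and less Cdh1 RNA per cell cannot be told apart. The 6 pluripotency markers had a summed level of 2700 to 2839 CPM in Oct1 cKO libraries and 1151 to 1199 CPM in parental libraries at day 2. All 6 were higher in Oct1 cKO cells at that day, where 33.7% of all genes were. At day 6 the sums were 157.9 to 163.3 CPM in Oct1 cKO libraries and 22.98 to 23.83 CPM in parental libraries. By then Pou5f1, Zfp42, Dppa5a and Utf1 were higher in Oct1 cKO cells, Nanog was lower (-1.96, adjusted p = 7.6e-07) and Tdgf1 was not called. The part of these 6 markers in the Cdh1 difference was not tested.

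Epcam, a homophilic adhesion molecule of epithelia that is also abundant in ESCs (ENSMUSG00000045394, chromosome 17, 87635979 to 87651129, plus strand), followed a similar course but began lower in Oct1 cKO cells. Its CPM in Oct1 cKO libraries were 106, 103 and 114 at day 0, 200.5, 206 and 187 at day 2 and 153, 139.8 and 139.9 at day 6. Parental libraries had 145, 154 and 149 at day 0, 132, 128 and 125 at day 2 and 21.4, 22.5 and 21.5 at day 6. The genotypes did not overlap on any day, with the Oct1 cKO libraries below the parental ones at day 0 and above them afterwards. Epcam was lower in Oct1 cKO cells at day 0 (-0.47 ± 0.05, adjusted p = 4.45e-10) and higher at day 2 (0.62 ± 0.05, adjusted p = 6.45e-14) and day 6 (2.72 ± 0.06, adjusted p = 4.03e-32). Within Oct1 cKO cells it rose by day 2 (0.88 ± 0.05, adjusted p = 2.03e-18) and stayed above day 0 at day 6 (0.42 ± 0.05, adjusted p = 1.33e-09). Parental cells lost most of it between days 2 and 6 (-2.56 ± 0.06, adjusted p = 1.45e-31). The earlier parental change, day 2 against day 0, depended on scaling: it was -0.22 ± 0.05, adjusted p = 0.000154 with TMM factors and 0.12 (adjusted p = 0.02) with library sizes alone.

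The 300 bases around the Epcam start (250 before it and 50 after, RefSeq, GRCm38.p6, chr17:87635729-87636028, plus strand) are shown because Snai and Zeb proteins are known to bind the E-box CAGGTG, and this promoter holds that word on each strand. The capitals mark the matches, CACCTG at -187 and CAGGTG at -19 from the start.
Epcam promoter: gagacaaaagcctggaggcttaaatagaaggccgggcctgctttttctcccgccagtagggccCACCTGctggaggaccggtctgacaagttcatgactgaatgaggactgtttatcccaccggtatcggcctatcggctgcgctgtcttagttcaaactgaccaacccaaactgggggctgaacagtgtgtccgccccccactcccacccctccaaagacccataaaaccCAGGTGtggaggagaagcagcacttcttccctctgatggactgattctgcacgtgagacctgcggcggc
RefSeq promoters were matched for 5 of the 10 genes (Epcam, Vim, Snai1, Zeb2 and Twist1), 8 promoters in all since Zeb2 has several starts. CAGGTG, read on either strand as CAGGTG or CACCTG, was in 2 of the 8, those of Epcam and Snai1, and in 20.2% of the 32851 promoters of the table. The octamer ATGCAAAT, or ATTTGCAT on the other strand, the word bound by Oct1, was in 0 of the 8 and in 1.74% of all promoters. A match describes the letters only and is no measure of binding.

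Cdh2 encodes N-cadherin, the cadherin of neural and many mesodermal cells (ENSMUSG00000024304, chromosome 18, 16588877 to 16809246, minus strand). It rose at each step in parental cells and stayed low in Oct1 cKO cells. In the Oct1 cKO, single libraries had 9.7, 9.49 and 8.97 at day 0, 3.55, 3.73 and 3.94 at day 2 and 14.1, 12.4 and 9.72 at day 6 (all CPM). Parental libraries had 9.94, 10.5 and 10.8 at day 0, 26.6, 28.7 and 24.9 at day 2 and 169, 169.7 and 159.7 at day 6. Every Oct1 cKO library lay below every parental library of the same day, narrowly at day 0 and widely at days 2 and 6. The day 0 difference was not called (-0.15 ± 0.11, adjusted p = 0.254). By day 2 Cdh2 was lower in Oct1 cKO cells (-2.84 ± 0.11, adjusted p = 2.12e-23), as it was by day 6 (-3.77 ± 0.07, adjusted p = 2.83e-33). In Oct1 cKO cells it fell by day 2 (-1.32 ± 0.14, adjusted p = 3.14e-11) and came back by day 6 (1.70 ± 0.13, adjusted p = 2.78e-15), where parental cells rose at both steps (1.36 ± 0.09, adjusted p = 4.01e-17, then 2.63 ± 0.06, adjusted p = 1.59e-30). The net rise in Oct1 cKO cells over 6 days was 0.37 ± 0.11, adjusted p = 0.00169. Without replicate 1 of the Oct1 cKO cells at day 6 it was 0.23 and no longer called (adjusted p = 0.0566).

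The ratio of Cdh1 to Cdh2 within a library, with each count divided by the length of the gene's principal transcript, does not depend on how libraries are scaled to each other. In Oct1 cKO libraries it was 74.3, 77.5 and 79.04 at day 0, 146, 130 and 129.9 at day 2 and 40.6, 42.7 and 60.8 at day 6. In parental libraries it was 70.1, 66.3 and 65.2 at day 0, 14.7, 13.2 and 14.5 at day 2 and 0.254, 0.293 and 0.291 at day 6. Parental libraries at day 6 were the only ones of the 6 groups in which Cdh2 exceeded Cdh1 per length. The Oct1 cKO ratio was higher at day 2 than at day 0 and lower at day 6 than at day 0, with no overlap between the 3 days. With 3 libraries against 3, an exact permutation test of such a ratio cannot go below 0.1, so the ratios are given as a description.

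**Figure D2:**
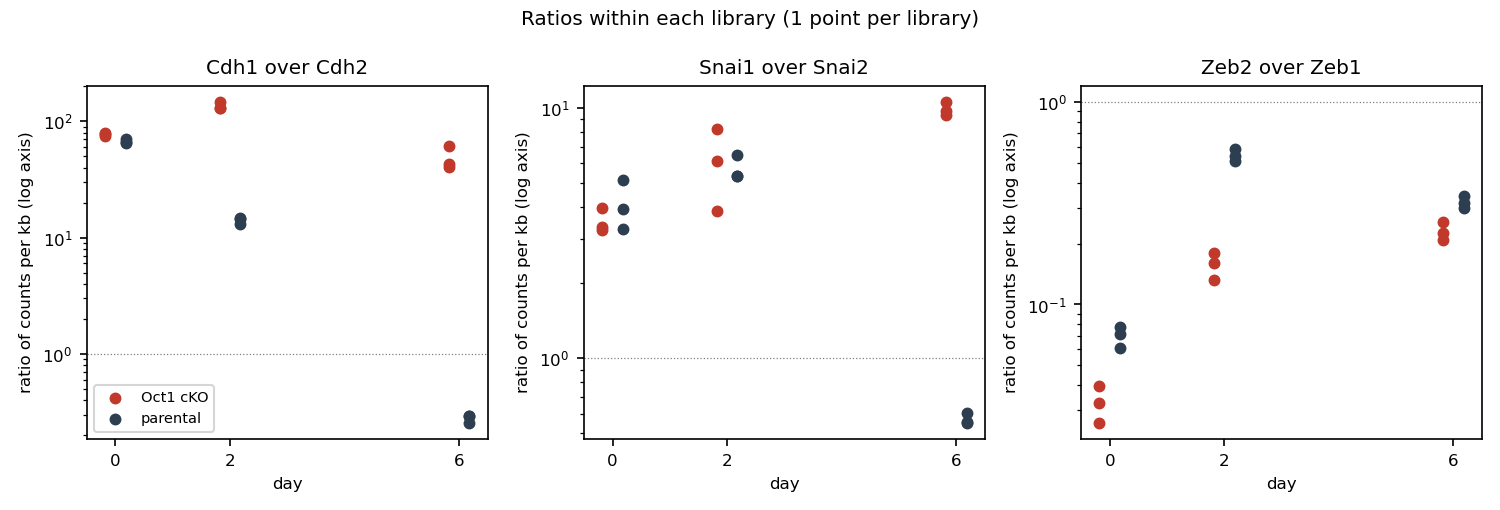
Ratios of counts per kb of transcript within each library (log axis) against day, for Cdh1 over Cdh2, Snai1 over Snai2 and Zeb2 over Zeb1, with 1 point per library, Oct1 cKO in red to the left of parental in dark blue. The dotted line marks a ratio of 1, which Cdh1 over Cdh2 crosses in the parental libraries of day 6, at 0.254 to 0.293, while the Oct1 cKO libraries of that day lie between 40.6 and 60.8.

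Vim encodes vimentin, the intermediate filament of mesenchymal cells (ENSMUSG00000026728, chromosome 2, 13573927 to 13582826, plus strand). The direction of its difference between genotypes turned from day to day. Oct1 cKO libraries had 199, 201 and 232 at day 0, 180.2, 171 and 168 at day 2 and 154, 141 and 113 at day 6 (all CPM). Parental libraries had 279.6, 286 and 286 at day 0, 123, 147 and 135 at day 2 and 504, 471 and 444 at day 6. Vim was therefore well expressed in the day 0 libraries of both genotypes, and the groups did not overlap on any day. Vim was lower in Oct1 cKO cells at day 0 (-0.43 ± 0.09, adjusted p = 0.00104), higher at day 2 (0.36 ± 0.09, adjusted p = 0.00359) and lower at day 6 (-1.80 ± 0.10, adjusted p = 2.33e-11). Feeder fibroblast markers (Col1a1, Col1a2, Col3a1, Thy1, Postn, Dcn, Lum and Fbln2) also differed at day 0. They summed to 354.1 to 367.5 CPM in Oct1 cKO libraries and 1161 to 1227 CPM in parental libraries. Of these 8 markers, 7 were lower in Oct1 cKO cells, where 27% of all genes were. Their part in the Vim level was not tested. The day 2 difference was 0.16 and not called under library sizes alone (adjusted p = 0.116). Parental Vim fell by day 2 (-1.07 ± 0.09, adjusted p = 2.05e-08) and rose by day 6 (1.81 ± 0.09, adjusted p = 1.84e-11). In Oct1 cKO cells it fell a little at each step (-0.29 ± 0.09, adjusted p = 0.0116, then -0.34 ± 0.10, adjusted p = 0.00365). The call of the first step was lost without replicate 3 of the Oct1 cKO cells at day 0 (adjusted p = 0.0878) and under library sizes (adjusted p = 0.208), and the second was -0.23 without replicate 3 of day 6 and -0.53 under library sizes.

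Fn1 encodes fibronectin, a matrix protein that mesenchymal cells deposit and that ESCs and extraembryonic endoderm also make (ENSMUSG00000026193, chromosome 1, 71585520 to 71653200, minus strand). Unlike Cdh2 and Vim, it was higher in Oct1 cKO cells at day 6. Oct1 cKO libraries had 2746, 2711 and 2174 at day 0, 1660, 1557 and 1650 at day 2 and 1426, 1551 and 1545 at day 6 (all CPM). Parental libraries had 3437, 3473 and 3517 at day 0, 659, 568 and 598 at day 2 and 1166, 1072 and 1084 at day 6. Fn1 was highest at day 0 in both genotypes, and parental cells lost most of it by day 2. It was lower in Oct1 cKO cells at day 0 (-0.45 ± 0.07, adjusted p = 1.96e-06) and higher at day 2 (1.42 ± 0.07, adjusted p = 4.19e-16) and day 6 (0.44 ± 0.07, adjusted p = 1.03e-06), with 0.24 at day 6 under library sizes. Parental Fn1 fell by day 2 (-2.51 ± 0.07, adjusted p = 6.2e-22) and rose again by day 6 (0.86 ± 0.07, adjusted p = 4.6e-12). In Oct1 cKO cells the fall by day 2 was smaller (-0.65 ± 0.07, adjusted p = 1.34e-09) and the step from day 2 to day 6 was not called (-0.11 ± 0.07, adjusted p = 0.14). Under library sizes (-0.30) and in a fit of the compared libraries alone (-0.12), that last step was called. The 7 extraembryonic endoderm markers summed to 2625 to 2911 CPM in Oct1 cKO libraries and 1536 to 1627 CPM in parental libraries at day 6. None of them was at 0, with 6 higher in Oct1 cKO cells and Afp lower. At day 2 they summed to 412.1 to 468.8 CPM in Oct1 cKO libraries and 182.1 to 208.4 CPM in parental libraries. There 3 were higher (33.7% of all genes), 2 lower (33.6%) and 2 not called. The 8 feeder fibroblast markers summed to 354.1 to 367.5 CPM at day 0 and 103 to 131.1 CPM at day 2 in Oct1 cKO libraries. In parental libraries they gave 1161 to 1227 CPM, then 183.1 to 198.6 CPM. The part of both marker sets in the Fn1 level was not tested. Fn1 shares 292 exonic bases with the antisense gene Apol7d, which had 7 to 32 counts per library.

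The 2 Snai factors, zinc-finger repressors of Cdh1 in the embryo, parted at day 6. Snai1 (ENSMUSG00000042821, chromosome 2, 167538195 to 167542814, plus strand) had 7.07, 5.88 and 7.03 at day 0, 7.54, 7.99 and 7.29 at day 2 and 37.2, 34.8 and 32.5 at day 6 in Oct1 cKO libraries (all CPM). In parental libraries it had 5.44, 5.01 and 4.71 at day 0, 8.50, 7.58 and 7.87 at day 2 and 19.4, 19.1 and 17.4 at day 6. Both genotypes were highest at day 6, and the Oct1 cKO libraries were above all parental libraries there and at day 0, with overlap at day 2. At day 0 Snai1 was higher in Oct1 cKO cells (0.40 ± 0.13, adjusted p = 0.00688), as it was by day 6 (0.90 ± 0.07, adjusted p = 6.89e-14), and it was not called at day 2 (-0.07 ± 0.11, adjusted p = 0.572), where library sizes alone gave -0.26 (adjusted p = 0.0272). It rose over 6 days in Oct1 cKO cells (2.38 ± 0.09, adjusted p = 3.93e-24) and in parental cells (1.88 ± 0.10, adjusted p = 9.93e-20). The Snai1 promoter (RefSeq, GRCm38.p6, chr2:167537945-167538244, plus strand) is shown as the other of the 8 with an E-box, which Snai1 protein is itself known to bind. The capitals mark CACCTG at -126 from the start.
Snai1 promoter: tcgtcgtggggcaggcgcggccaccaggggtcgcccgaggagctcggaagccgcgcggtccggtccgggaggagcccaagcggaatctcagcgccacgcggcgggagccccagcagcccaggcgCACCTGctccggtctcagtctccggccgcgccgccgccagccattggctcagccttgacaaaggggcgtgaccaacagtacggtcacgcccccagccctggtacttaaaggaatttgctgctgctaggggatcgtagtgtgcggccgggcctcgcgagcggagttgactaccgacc
Snai2 (ENSMUSG00000022676, chromosome 16, 14705852 to 14709385, plus strand), also called Slug and known from neural crest and mesoderm, had 2.71, 2.20 and 2.20 at day 0, 1.14, 1.63 and 2.34 at day 2 and 4.76, 4.11 and 4.32 at day 6 in Oct1 cKO libraries (all CPM). In parental libraries it had 1.31, 1.91 and 1.49 at day 0, 1.99, 1.47 and 1.84 at day 2 and 40.05, 43.3 and 39.1 at day 6. No library of the other 5 groups was above 4.76 CPM, and those of parental cells at day 6 were at 39.1 CPM or more. Snai2 was lower in Oct1 cKO cells at day 6 (-3.21 ± 0.11, adjusted p = 2.44e-26) and not called at day 2 (-0.07 ± 0.22, adjusted p = 0.8). At day 0 it was higher (0.57 ± 0.23, adjusted p = 0.0304), a call lost without replicate 1 or 3 of the parental cells or replicate 1 of the Oct1 cKO cells (adjusted p = 0.122, 0.0809 and 0.125). Its rise between days 2 and 6 was 1.37 ± 0.19, adjusted p = 2.53e-08 in Oct1 cKO cells and 4.52 ± 0.12, adjusted p = 1.59e-29 in parental cells.

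Per transcript length, Snai1 exceeded Snai2 in every library except those of parental cells at day 6. The ratio of Snai1 to Snai2 was 3.25, 3.34 and 3.99 at day 0, 8.24, 6.1 and 3.88 at day 2 and 9.74, 10.5 and 9.37 at day 6 in Oct1 cKO libraries. It was 5.17, 3.26 and 3.95, then 5.33, 6.45 and 5.32, then 0.604, 0.550 and 0.554 on the same days in parental libraries. Oct1 cKO cells at day 6 had the highest Snai1 level of the 6 groups, in CPM and per length, while their Cdh1 was at 486 to 541 CPM.

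Zeb1 and Zeb2 are large zinc-finger homeodomain repressors that bind the same E-box and hold down Cdh1 and Epcam in mesenchymal cells. Zeb1 (ENSMUSG00000024238, chromosome 18, 5591860 to 5775467, plus strand) had 52.6, 50.3 and 43.04 at day 0, 13.9, 13.1 and 13.97 at day 2 and 19.7, 19.3 and 18.7 at day 6 in Oct1 cKO libraries (all CPM). Parental libraries had 37.6, 37.9 and 40.3 at day 0, 20.1, 21.7 and 22.7 at day 2 and 111, 119 and 113 at day 6. Both genotypes dropped by day 2, and parental libraries then reached the highest levels of the series while Oct1 cKO libraries stayed below their day 0 level. Zeb1 was higher in Oct1 cKO cells at day 0 (0.33 ± 0.07, adjusted p = 5.15e-05) and lower at day 2 (-0.65 ± 0.08, adjusted p = 5.64e-09) and day 6 (-2.57 ± 0.07, adjusted p = 8.77e-30). It fell by day 2 in Oct1 cKO cells (-1.83 ± 0.08, adjusted p = 7.87e-23) and in parental cells (-0.85 ± 0.07, adjusted p = 5.44e-14). From day 2 to day 6 it rose by 0.50 ± 0.08 in Oct1 cKO cells (adjusted p = 1.72e-06) and by 2.42 ± 0.06 in parental cells (adjusted p = 1.39e-29), both on the log2 scale. Under library sizes the parental fall by day 2 was -0.51 and the Oct1 cKO rise after it 0.31, both still called. Zeb1 shares 198 exonic bases with Gm10125 on the other strand, at 0 to 12 counts per library.

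Zeb2 (ENSMUSG00000026872, chromosome 2, 44983632 to 45117395, minus strand), also known as a Smad-interacting protein, was the scarcer of the pair. Oct1 cKO libraries had 2.71, 3.14 and 1.76 at day 0, 3.49, 2.74 and 3.94 at day 2 and 6.43, 6.83 and 7.50 at day 6 (all CPM). Parental libraries had 4.56, 4.28 and 3.85 at day 0, 18.5, 18.5 and 18.3 at day 2 and 59.9, 56.3 and 56.4 at day 6. Zeb2 rose in parental cells by day 2 (2.12 ± 0.11, adjusted p = 7.34e-20), when parental Zeb1 fell, and rose further by day 6 (1.64 ± 0.07, adjusted p = 5.42e-22). It was lower in Oct1 cKO cells at day 0 (-0.77 ± 0.17, adjusted p = 0.000298), day 2 (-2.45 ± 0.12, adjusted p = 2.31e-20) and day 6 (-3.06 ± 0.09, adjusted p = 4.73e-28), with no overlap between genotypes on any day. Within Oct1 cKO cells the libraries of days 2 and 0 overlapped. That change was 0.44 ± 0.18, adjusted p = 0.0307, and it missed the threshold in 7 alternatives, among them leaving out replicate 3 of day 0 (0.19, adjusted p = 0.379), replicate 1 of day 2 (adjusted p = 0.0771) or replicate 3 of day 2 (adjusted p = 0.169). By day 6 Zeb2 was above day 0 in Oct1 cKO cells (1.48 ± 0.16, adjusted p = 6.94e-11). The ratio of Zeb2 to Zeb1 per length was 0.0327, 0.0397 and 0.0260 at day 0, 0.160, 0.133 and 0.179 at day 2 and 0.207, 0.225 and 0.255 at day 6 in Oct1 cKO libraries. It was 0.0772, 0.0717 and 0.0607, then 0.586, 0.542 and 0.513, then 0.342, 0.300 and 0.317 in parental libraries, so that the parental ratio peaked at day 2 and the Oct1 cKO ratio at day 6. The antisense gene Zeb2os shares 653 exonic bases with Zeb2 and had 0 to 49 counts per library, and without strand in the counting the reads of the pair cannot be told apart.

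Twist1, a basic helix-loop-helix factor of cranial mesoderm and neural crest (ENSMUSG00000035799, chromosome 12, 33957671 to 33959829, plus strand), rose first in both genotypes and then diverged. Its CPM in Oct1 cKO libraries were 3.01, 2.82 and 4.02 at day 0, 7.73, 8.87 and 8.36 at day 2 and 4.35, 3.71 and 2.80 at day 6. Parental libraries had 2.25, 2.02 and 1.68 at day 0, 7.73, 8.28 and 6.73 at day 2 and 44.7, 47.3 and 44.4 at day 6. At day 2 the groups overlapped, and at day 6 the lowest parental library was far above the highest Oct1 cKO library. Twist1 was higher in Oct1 cKO cells at day 0 (0.74 ± 0.20, adjusted p = 0.00167), not called at day 2 (0.14 ± 0.12, adjusted p = 0.304) and lower at day 6 (-3.64 ± 0.11, adjusted p = 6.62e-28). Under library sizes the day 2 value was -0.056, also not called. It rose by day 2 in Oct1 cKO cells (1.32 ± 0.15, adjusted p = 2.99e-10) and in parental cells (1.93 ± 0.16, adjusted p = 4.7e-14). Between days 2 and 6 it fell in Oct1 cKO cells (-1.20 ± 0.14, adjusted p = 6.46e-10) and rose in parental cells (2.58 ± 0.09, adjusted p = 1.47e-25). Its level at day 6 in Oct1 cKO cells was not called against day 0 (0.13 ± 0.17, adjusted p = 0.506).

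The change over time was compared between genotypes by an interaction term, the log2 fold change of a day over day 0 in Oct1 cKO cells minus that in parental cells. By day 6 all 10 genes passed the test where 63.9% of all genes did, with 4 higher (32% of all genes) and 6 lower (31.9%). The term was 3.56 ± 0.07 for Cdh1, 3.20 ± 0.08 for Epcam, -3.62 ± 0.14 for Cdh2 and -1.37 ± 0.13 for Vim. Among the factors it was -4.39 ± 0.24 for Twist1, -3.79 ± 0.26 for Snai2, -2.90 ± 0.09 for Zeb1 and -2.29 ± 0.22 for Zeb2. Snai1 (0.50 ± 0.15, adjusted p = 0.00335) and Fn1 (0.90 ± 0.09, adjusted p = 3.23e-09) had positive terms, and that of Snai1 was not called under library sizes (0.31, adjusted p = 0.064). By day 2, 9 of 10 passed against 57% of all genes, with 4 higher (30.1%) and 5 lower (26.9%). The sizes at day 2 were -2.69 ± 0.16 for Cdh2, 1.87 ± 0.09 for Fn1, -1.68 ± 0.23 for Zeb2, 1.09 ± 0.07 for Epcam and -0.98 ± 0.10 for Zeb1. Snai2 was not called at day 2 (-0.64 ± 0.31, adjusted p = 0.0801). It was called under library sizes (adjusted p = 0.0258), when parental replicate 2 was left out from day 0 (adjusted p = 0.0381) or from day 2 (adjusted p = 0.0369), and without replicate 3 of the Oct1 cKO cells at day 2 (-0.93, adjusted p = 0.0149). Under library sizes 39.3% of all genes called by day 2 had a positive term, where 52.8% did with TMM factors. The day 2 term of Twist1 (-0.61 ± 0.23, adjusted p = 0.0227) was not called without replicate 3 of the parental cells at day 0 (adjusted p = 0.0859) or replicate 3 of the Oct1 cKO cells at day 0 (adjusted p = 0.144). The genotype comparisons at days 2 and 6 and the interactions use the same libraries and are not independent of each other.

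**Figure D3:**
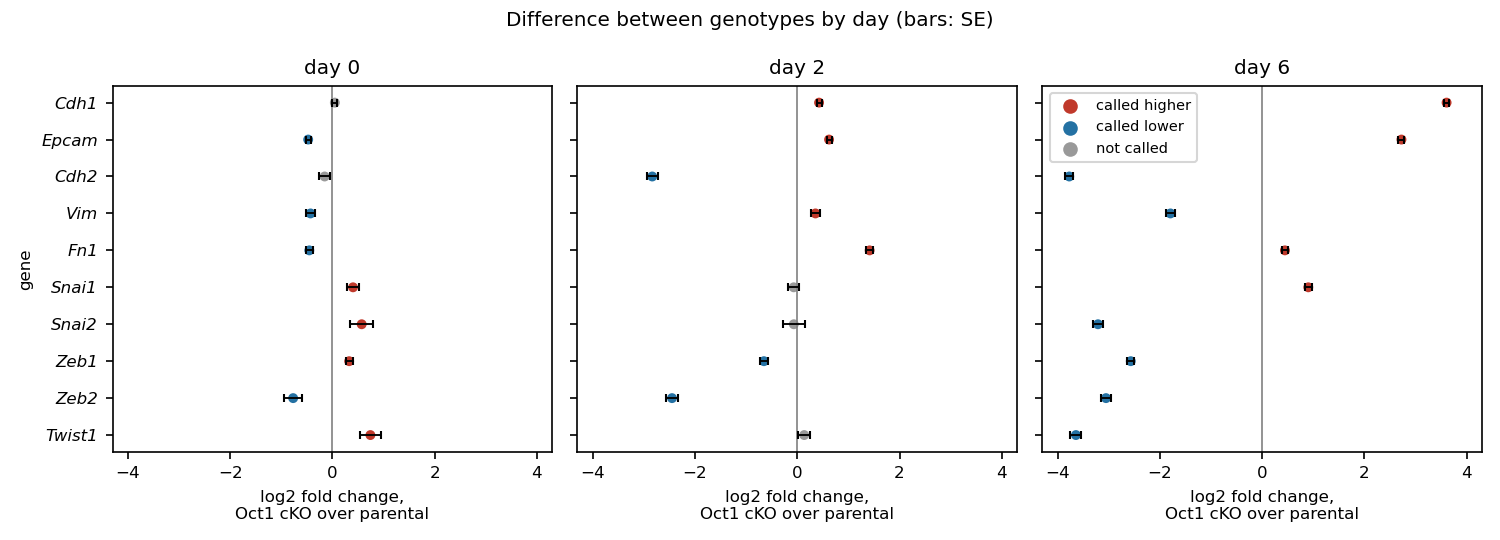
Log2 fold change of Oct1 cKO over parental cells for the 10 genes at days 0, 2 and 6, with bars for the SE. Red marks genes called higher, blue genes called lower and grey genes not called. At day 0 the values lie between -0.77 (Zeb2) and 0.74 (Twist1), and at day 6 between -3.77 (Cdh2) and 3.61 (Cdh1).

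Within genotypes, the 10 genes were mostly called as well, and so were most genes of the table. In Oct1 cKO cells 8 genes changed by day 2, against 76.5% of all genes, with 3 higher than at day 0 (41% of all genes) and 5 lower (35.5%). Between days 2 and 6 it was 9, against 81.2%, with 6 higher (39.6%) and 3 lower (41.6%). Over all 6 days it was 9, against 81.8%, with 5 higher (41.4%) and 4 lower (40.4%). In parental cells 9 changed by day 2, against 80.8%, with 4 higher (43.2%) and 5 lower (37.7%). Between days 2 and 6 all 10 changed, against 79.6%, with 8 higher (42.6%) and 2 lower (36.9%). Over all 6 days all 10 changed, against 85.5%, with 7 higher (45.3%) and 3 lower (40.2%). Scaling by library size alone gave 4 higher and 4 lower by day 2 and 5 higher and 4 lower between days 2 and 6 in Oct1 cKO cells, and 6 higher and 4 lower by day 2 in parental cells. In the same order of comparisons, all genes then gave 8543 higher and 5511 lower, 6260 higher and 8771 lower, and 10130 higher and 4589 lower. In the last of these 68.8% of all called genes were higher, where 53.4% were with TMM factors. DESeq2 size factors gave 2 higher and 6 lower by day 2 in Oct1 cKO cells, where all genes gave 7207 higher and 6867 lower. The median size over 6 days without its sign was 0.69 for the 10 genes in Oct1 cKO cells and 3.27 in parental cells, on the log2 scale, where it was 1.09 for all genes in each genotype. In Oct1 cKO cells the largest of the 10 net changes was the rise of Snai1 (2.38 ± 0.09), and in parental cells it was the rise of Snai2 (4.68 ± 0.13).

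Ranked by mean CPM per kb of transcript, Fn1 was the highest of the 10 genes in all 3 Oct1 cKO groups and in parental cells at day 0. It stood at 181 ± 8.48 in Oct1 cKO cells and 133 ± 6.15 in parental cells at day 6 (CPM per kb, SD, n = 3 each). Cdh1 was second in every Oct1 cKO group. In parental cells Cdh1 was first at day 2, at 77.7 ± 3.10 next to Fn1 at 73.1 ± 5.63, a gap smaller than the SD of Fn1, and ninth at day 6, at 9.57 ± 0.712. Vim led the parental list at day 6 with 216 ± 13.7, and Cdh2 was the third there with 34.3 ± 1.15. In the same cells Snai2 (20.2 ± 1.08) and Zeb1 (19.7 ± 0.707) were neighbours that did not differ beyond their spread. Zeb2 was the lowest per length in 5 of the 6 groups, the exception being parental cells at day 2, where Snai2 was lower.

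Across the 18 libraries, which share 6 groups and therefore are not independent points, log2 CPM of Cdh1 ran with that of Epcam (Pearson r = 0.928) and against Twist1 (-0.938), Snai2 (-0.911), Cdh2 (-0.896) and Zeb2 (-0.894). With Zeb1 it was -0.679 and with Snai1 -0.406. Parental cells at day 6 stood far from the rest, with means of 42.4 CPM for Cdh1, 40.8 for Snai2 and 45.5 for Twist1. In the other 5 groups Cdh1 was at 344 CPM or more, Snai2 at 4.40 or less and Twist1 at 8.32 or less. The coefficients, and the likeness below, may therefore rest in large part on that group. How far they do is not known, because they were not computed without it. Out of 12036 genes averaging 1 or more in log2 CPM, the 5 most like Cdh1 were Wfdc2 (r = 0.986), Trim6 (0.985), Alpl (0.985), Camsap3 (0.984) and Gpx2 (0.979). Alpl is the tissue-nonspecific alkaline phosphatase long used as a stain for pluripotent colonies. At days 0, 2 and 6 it averaged 339, 349 and 373 CPM in Oct1 cKO cells and 316, 219 and 25.3 CPM in parental cells. Alpl thus did not fall in Oct1 cKO cells, where the 6 pluripotency markers summed to 6352 to 7272 CPM at day 0 and 157.9 to 163.3 CPM at day 6. Trim6, an E3 ubiquitin ligase, averaged 183 CPM in Oct1 cKO cells and 28.9 CPM in parental cells at day 6. The 5 most like Cdh2 were Ttc28 (0.990), Zfp282 (0.988), Ptprd (0.986), Zmynd11 (0.984) and Zfhx4 (0.982). Ptprd, a receptor tyrosine phosphatase of synapses and axons, averaged 5.03 CPM in Oct1 cKO cells and 115.7 CPM in parental cells at day 6, and Zfhx4, a large zinc-finger homeodomain factor, 0.976 CPM in Oct1 cKO cells and 39.03 CPM in parental cells.

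The partners of the 10 genes in adhesion and matrix were taken as lists from general knowledge, with earlier results of these data known. Their counts beside those of all genes are therefore a description. Of 28 other genes of epithelial junctions and their regulators, 26 were higher in Oct1 cKO cells at day 6 and none was lower, with Rab25 and Grhl1 not called (36.7% of all genes were higher and 37.8% lower). Their median log2 fold change was 2.39, beside 0 over all genes. At day 0 it was 13 higher (26.4% of all genes) and 8 lower (27%), and at day 2 it was 9 (33.7%) and 9 (33.6%). Library sizes alone gave 4 higher at day 2, where all genes gave 4263 higher and 8187 lower. Cldn6, a claudin of early embryonic epithelia, averaged 122 ± 3.09 CPM in Oct1 cKO cells and 12.3 ± 1.29 CPM in parental cells at day 6 (SD, n = 3 each, log2 fold change 3.32 ± 0.06, adjusted p = 1.38e-33). Elf3, an epithelial ETS factor, averaged 272 ± 8.72 CPM in Oct1 cKO cells and 32.98 ± 1.80 CPM in parental cells (3.05 ± 0.05, adjusted p = 3.24e-34). The same direction was seen for Spint2, an inhibitor of membrane serine proteases (2.84 ± 0.06), and Pkp2, a desmosomal plakophilin (2.24 ± 0.05). Among 10 adherens junction partners 7 were higher and 3 lower at day 6, with a median of 0.66. At day 0 it was 4 and 4, and at day 2 it was 3 and 3, beside the same shares of all genes as above. Under library sizes alone day 2 gave 0 and 6, where all genes also moved towards lower calls. Of 6 other cadherins 3 were higher and 2 lower at day 6, with a median of 0.79. Ctnna1, the alpha-catenin that links cadherins to actin, averaged 967 ± 1.37 CPM in Oct1 cKO cells and 470 ± 5.63 CPM in parental cells (1.04 ± 0.04, adjusted p = 1.5e-23), and Ctnnd1, the p120 catenin that keeps cadherins at the membrane, averaged 141 ± 4 CPM in Oct1 cKO cells and 62.4 ± 2.11 CPM in parental cells (1.18 ± 0.05, adjusted p = 4.06e-22).

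Of 26 mesenchymal genes, 21 were lower and 4 higher in Oct1 cKO cells at day 6, with Thy1 not called and a median of -1.69. Of all genes 37.8% were lower and 36.7% higher at that day. At day 0 it was 3 higher (26.4% of all genes) and 19 lower (27%), and at day 2 it was 5 (33.7%) and 15 (33.6%). The 5 became 3 without replicate 2 or 3 of the parental cells at day 2, and 2 under library sizes. Col1a2, a fibrillar collagen chain, averaged 59.8 ± 5.99 CPM in Oct1 cKO cells and 693 ± 31.4 CPM in parental cells at day 6 (SD, n = 3 each, log2 fold change -3.53 ± 0.07, adjusted p = 6.31e-31). Col6a1, a beaded-filament collagen, averaged 28.2 ± 3.77 CPM in Oct1 cKO cells and 459 ± 52.8 CPM in parental cells (-4.02 ± 0.08, adjusted p = 3.53e-27). Col5a2 (-2.84 ± 0.07) and the receptor tyrosine kinase Axl (-3.07 ± 0.07) were lower as well. The 4 that were higher were the integrin subunits Itgb1, Itgav and Itga5, which bind fibronectin, and Sparc, a collagen-binding matrix protein. Of 19 other transition factors and inducing signals, 13 were lower and 2 higher (Klf8 and Snai3) at day 6, with a median of -0.84. Tgfb3, a TGF-beta ligand, averaged 19.4 ± 0.438 CPM in Oct1 cKO cells and 189 ± 6.96 CPM in parental cells (-3.28 ± 0.06, adjusted p = 7.18e-34), and Hmga2, an architectural chromatin protein downstream of TGF-beta, averaged 171 ± 4.18 CPM in Oct1 cKO cells and 475 ± 9.84 CPM in parental cells (-1.48 ± 0.04, adjusted p = 2.33e-27). Tcf3 (-1.44 ± 0.06), which encodes the E-box factors E12 and E47, and Sox4 (-1.06 ± 0.05) were also lower. At day 0 that list held 4 higher and 6 lower, and at day 2 it held 2 and 12, with 1 higher under library sizes.

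**Figure D4:**
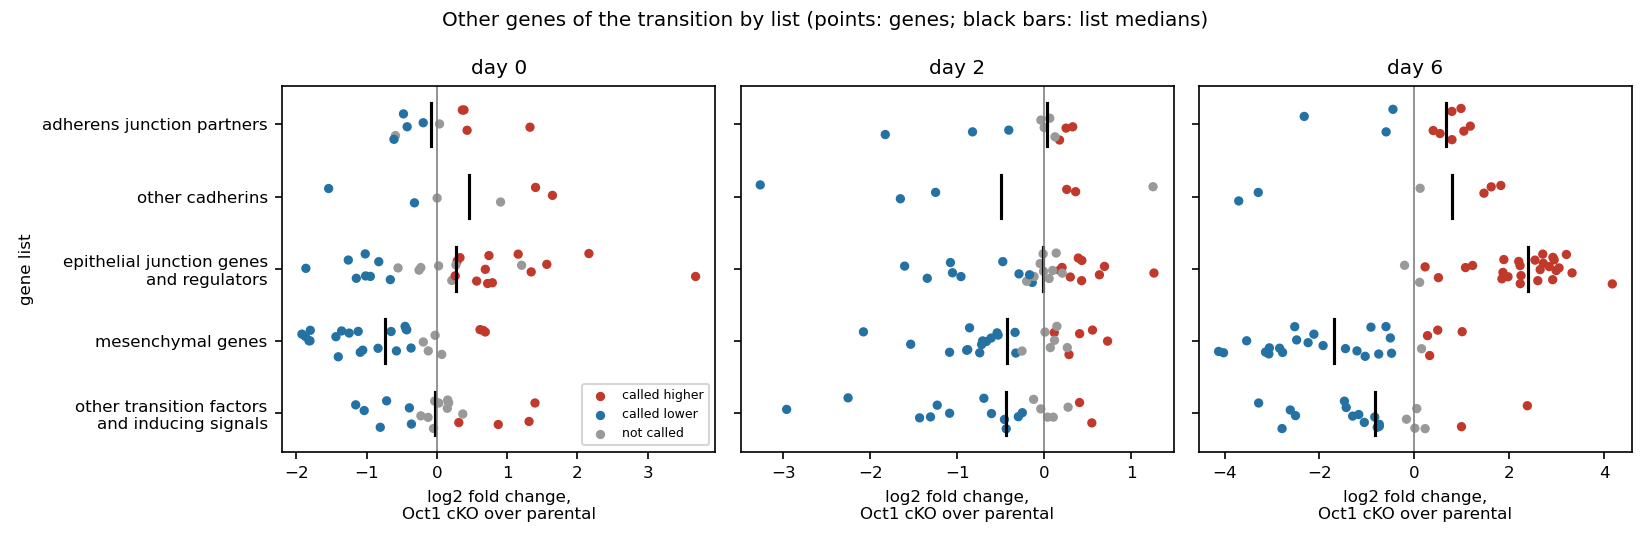
Log2 fold change of Oct1 cKO over parental cells at days 0, 2 and 6 for genes of 5 lists (1 point per gene, spread vertically for legibility), coloured by call, with a black bar at the median of each list. At day 6 the epithelial list centres on 2.39 and the mesenchymal list on -1.69.

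Markers of other cell types also differed between the genotypes. The 8 feeder fibroblast markers, 4 of which (Col1a1, Col1a2, Col3a1 and Thy1) are also in the mesenchymal list, were all in the table and none was at 0 in any group. They summed to 354.1 to 367.5 CPM in Oct1 cKO libraries and 1161 to 1227 CPM in parental libraries at day 0, 103 to 131.1 CPM in Oct1 cKO libraries and 183.1 to 198.6 CPM in parental libraries at day 2, and 476.9 to 574.9 CPM in Oct1 cKO libraries and 4001 to 4299 CPM in parental libraries at day 6. At day 0, 7 of the 8 were lower in Oct1 cKO cells (27% of all genes) and 1 was not called. At day 6, 6 of the 8 were lower, Postn was higher and Thy1 was not called. The sums of both genotypes fell by day 2 and were above day 0 at day 6. These markers cannot tell feeder cells from mesenchymal cells formed in the culture, so at day 6 the name of the list does not identify the cells. The 6 neuron markers summed to 33.07 to 40.08 CPM in Oct1 cKO libraries and 209.1 to 215.4 CPM in parental libraries at day 6, but they were split. Dcx, Stmn2 and Map2 were lower in Oct1 cKO cells, Tubb3 (1.43) and Elavl3 (3.26) were higher and Rbfox3 was not called. The 5 neural progenitor markers summed to 29.65 to 33.64 CPM in Oct1 cKO libraries, with Sox1 at 0, and 146 to 170.2 CPM in parental libraries, with Hes5 at 0. Most of both sums was Nes, which was lower in Oct1 cKO cells, as were Pax6 and Fabp7, while Sox1 was not called and Hes5 was not tested. At day 2 all 4 that were tested were lower. The 5 of 6 early mesoderm markers in the table gave 18.82 to 19.17 CPM in Oct1 cKO libraries and 213.7 to 244.4 CPM in parental libraries. Kdr made up most of both sums, at 12.9 CPM in Oct1 cKO cells and 226 CPM in parental cells. Kdr and Mixl1 were lower in Oct1 cKO cells, Eomes (2.28) and Tbx6 (0.86) were higher and T was not called. The 4 endothelial markers, all higher in Oct1 cKO cells, gave 284.2 to 305.8 CPM in Oct1 cKO libraries and 93.75 to 108.4 CPM in parental libraries, most of it Cdh5. The 4 trophoblast markers, for an epithelial cell type, gave 460.9 to 504.4 CPM in Oct1 cKO libraries and 124.3 to 143 CPM in parental libraries, and all 4 were higher. The part of these cell types in the differences of the 10 genes was not tested. None of the 10 genes lies on chromosome 11. Without the list genes on that chromosome, an alternative chosen after seeing the data, day 6 gave 24 higher and 0 lower of the epithelial list. The mesenchymal list gave 3 higher and 20 lower. Only 2 of the 28 epithelial and 2 of the 26 mesenchymal genes lie there. These counts could therefore hardly change and are no check of the result.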

How the data were processed

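Bulk RNA-seq counts of 18 libraries were analysed, as the authors deposited them: whole-number read counts per Ensembl gene, with no normalization. Novoalign, DESeq2 1.10.0 and the builds mm10 and GRCm38 are listed, per the submitters' processing notes, without role or order. The counter, the annotation release and the strand setting were not given in the sources used here. Per the labels' protocols, RNA was total RNA. Libraries were grouped by genotype and day in the labels. Replicate numbers follow accession order and pair nothing. No replicate pair agreed within sampling noise, so all were kept.

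Counts were filtered (filterByExpr, minimum count 10, total 15), scaled by TMM and fitted with edgeR 4.0.16 (R 4.3.3), 1 coefficient per group, in 11 comparisons. CPM use TMM-scaled library sizes. The fit was tested on simulated data in which few genes changed, equally up and down. That setting is unlike these data, where most genes were called, so it does not bear on the choice of scaling. Positions and transcript lengths come from GENCODE M21 (all 21995 IDs matched). The members and lists were chosen with earlier results of these data known. Named genes were the 10 members, Pou2f1, up to 4 genes per list with the smallest adjusted p, and the 5 genes most like Cdh1 and Cdh2. Alternatives were DESeq2 size factors, library sizes, no filter, DESeq2 1.42.0, a fit of the compared libraries and leaving out each library. The neural crest marker list is not reported here.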

Additional observations from a re-analysis of the deposited data

Results flagged for a closer look

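The interaction terms below are listed because the change from day 0 in Oct1 cKO cells differed from that in parental cells by the test of the difference itself (edgeR's quasi-likelihood test, Benjamini-Hochberg adjusted p over all genes under 0.05). Most genes of the table passed the same test, 57% by day 2 and 63.9% by day 6, so passing it does not set these genes apart. Each value is the log2 fold change over day 0 in Oct1 cKO cells minus that in parental cells. By day 6 it was 3.56 for Cdh1, 3.20 for Epcam, -3.62 for Cdh2, -1.37 for Vim and 0.90 for Fn1. Among the transcription factors it was 0.50 for Snai1, -3.79 for Snai2, -2.90 for Zeb1, -2.29 for Zeb2 and -4.39 for Twist1. By day 2 it was 0.38 for Cdh1 (0.20 under scaling by library size), 1.09 for Epcam, -2.69 for Cdh2, 0.78 for Vim and 1.87 for Fn1. The factors gave -0.47 for Snai1, -0.98 for Zeb1, -1.68 for Zeb2 and -0.61 for Twist1 by that day. In the comparison of genotypes Vim was at 0.36 at day 2 and -1.80 at day 6, and Twist1 at 0.14 at day 2, not called, and -3.64 at day 6.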

How the results depend on the processing

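Of 1330 values of single members under an alternative, 1293 kept direction and call, 17 lost the call, 14 gained one and 6 changed sign. No total of members or of all genes called moved by 1.5 times or more, but counts in 1 direction did. Between days 2 and 0, library sizes gave 6 members higher instead of 4 and 4589 genes lower instead of 6913 in parental cells. In Oct1 cKO cells 2 members were higher instead of 3 with DESeq2 size factors, with no filter, with the DESeq2 Wald test and in a fit of the compared libraries alone. With library sizes alone, which move the median of all genes to -0.20 at day 2 and -0.19 at day 6 between genotypes and to 0.42 between days 2 and 0 in parental cells, Twist1 was -0.056 instead of 0.14 at day 2, Cdh1 was -0.0305 instead of 0.16 between days 6 and 2 in Oct1 cKO cells, and Epcam was 0.12 instead of -0.22 between days 2 and 0 in parental cells. Leaving out each library in turn gave -0.35 to 0.14 for Snai2 between genotypes at day 2 (-0.07 with all), and it was 0.01 without replicate 1 of the parental cells and 0.14 without replicate 1 of the Oct1 cKO cells. For Twist1 between days 6 and 0 in Oct1 cKO cells it gave -0.0431 to 0.30 (0.13 with all), the lowest without replicate 1 of day 6. Among the lists, library sizes gave 4 epithelial genes higher at day 2 instead of 9. Adherens junction partners were then 0 higher and 6 lower instead of 3 and 3. All genes gave 4263 higher and 8187 lower instead of 6187 and 6172. The causes of these shifts were not tested. Genes at a few CPM rest on few counts per library, which limits small differences there. In both genotypes these included Snai2, Zeb2 and Twist1 at day 0 and Snai2 at day 2. In Oct1 cKO cells they also included Cdh2 and Zeb2 at day 2 and Twist1 at day 6. No paired analysis was possible because replicate numbers follow accession order and pair no libraries.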

Other observations

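The table holds 20 genes named Cdh followed by a number, of which 17 were tested. This set was taken whole, after values of some members were seen. At day 6, 6 were higher and 9 lower in Oct1 cKO cells, where 74.5% of all genes were called. At day 2 it was 3 and 7, against 67.3% of all genes called, and at day 0 it was 4 and 3, against 53.5%. Cdh3, the P-cadherin of placenta and epidermis, averaged 416 ± 14.9 CPM in Oct1 cKO cells and 118 ± 2.66 CPM in parental cells at day 6 (SD, n = 3 each, log2 fold change 1.82 ± 0.05, adjusted p = 6.21e-30, edgeR's quasi-likelihood test). Cdh5, the cadherin of endothelium, averaged 277 ± 11.6 CPM in Oct1 cKO cells and 90.3 ± 6.86 CPM in parental cells (1.62 ± 0.06, adjusted p = 1.04e-25). Cdh4, or R-cadherin, a close relative of Cdh2, averaged 7.13 ± 0.384 CPM in Oct1 cKO cells and 2.57 ± 0.427 CPM in parental cells (1.46 ± 0.15, adjusted p = 5.78e-11), the opposite direction to Cdh2. Cdh1, Cdh23 and Cdh24 were the others that were higher at day 6, Cdh24 by 0.22 ± 0.09 (adjusted p = 0.0278). The 9 that were lower were Cdh2, Cdh6, Cdh7, Cdh8, Cdh10, Cdh11, Cdh15, Cdh18 and Cdh22, and Cdh13 and Cdh20 were not called. Cdh11, known from mesenchyme, averaged 14.7 ± 2.72 CPM in Oct1 cKO cells and 192 ± 4.81 CPM in parental cells (-3.70 ± 0.07, adjusted p = 4.67e-33). Cdh6, of kidney and neural crest, averaged 17.1 ± 1.83 CPM in Oct1 cKO cells and 167 ± 2.34 CPM in parental cells (-3.29 ± 0.07, adjusted p = 1.92e-32). Cdh10, a brain cadherin, averaged 0.396 ± 0.210 CPM in Oct1 cKO cells and 32.3 ± 1.31 CPM in parental cells (-6.31 ± 0.17, adjusted p = 1.06e-28), and Cdh8 averaged 0.680 ± 0.0953 CPM in Oct1 cKO cells and 9.84 ± 0.667 CPM in parental cells (-3.84 ± 0.21, adjusted p = 2.07e-19).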
